A study of Mus musculus with 2 samples.

Results

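Genes linked to alternatively activated and tissue-resident macrophages were followed in myeloid cells of mice with either Ptpn22 allele, described by the study as LCMV-infected. The members were Arg1, Mrc1, Retnla, Chil3, Cd163, Folr2, Il10, Tgfb1 and Igf1. They were listed by gene name, with earlier results of these data known, and all 9 of 9 were found among the 32285 genes measured. They were read in 4 libraries, from 2 samples that each had 2 sets of counts, called run 1 and run 2, with 1 PEP-WT and 1 PEP-619WW library in each run. PEP-WT mice were C57BL/6 with the wild type Ptpn22 gene, and PEP-619WW mice were C57BL/6 in which CRISPR/Cas9 editing had placed tryptophan at residue 619 of PEP, the phosphatase encoded by Ptpn22. By the study's methods, both groups had received 1000000 PFU of LCMV-cl13 intravenously 8 days earlier. LCMV-cl13 is a persisting strain of lymphocytic choriomeningitis virus. The same methods give mice of 6 to 12 weeks of age, matched for sex. The study describes a sort of live CD45+ cells from spleens, pooled over 4 to 5 mice for each genotype, which would make each library 1 pool. The study names no uninfected library, and the counts were not checked for infection. The 10x Genomics 3′ assay gives each captured molecule a unique molecular identifier (UMI), and levels are given here as UMIs of a gene per 1000000 UMIs of a group of barcodes (CPM). Each run had 1 library per genotype, so the spread between mice is unknown and no difference was tested. Ratios and shares carry exact 95% intervals (Poisson for UMIs, Clopper-Pearson for shares) that cover counting error only. Where a count was 0, the limit it allows is given as 3 counts of the total. Ratios are of PEP-619WW over PEP-WT unless stated otherwise.

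Macrophages exposed to IL-4 or IL-13 signal through STAT6 and switch on a set of genes that includes Arg1, Retnla, Chil3 and Mrc1, a state known from helminth infection, allergy, wound repair and tumors. Cd163 and Folr2 instead mark macrophages that live long in tissues, and Igf1, Tgfb1 and Il10 encode secreted factors that such cells use to sustain tissue and restrain inflammation. In the spleen the resident cells are chiefly red pulp and marginal zone macrophages, while monocytes and neutrophils enter from blood and marrow.

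Barcodes were gated by UMIs of marker genes. Macrophage barcodes had at least 5 UMIs of C1qa and C1qb together, monocyte barcodes at least 5 UMIs of Lyz2 and 0 of C1qa, and neutrophil barcodes at least 20 UMIs of S100a8 and S100a9 together. The macrophage rule was met by 598 (PEP-WT) and 494 (PEP-619WW) barcodes in run 1 and by 5839 and 1968 in run 2, which was 4.03%, 5.76%, 61.2% and 17.8% of the libraries. All 8 genes of a macrophage marker list were at or above 10 CPM in this gate in each of the 4 libraries, but C1qa and C1qb of that list define the gate. In run 1 all 7 monocyte and all 5 T cell markers were at or above 10 CPM there as well, and the monocyte markers summed to more (6443 and 7831 CPM) than the macrophage markers (3001 and 3247 CPM). The monocyte gate of run 1 held more RNA of neutrophil markers (41141 and 70091 CPM over 7 genes) than of monocyte markers (11970 and 11722 CPM over 7 genes), and 41.5% and 55.4% of its barcodes were also neutrophil barcodes, so there the name stands for the rule alone. In run 2 these shares were 6.36% and 8.32%, and 9.79% of PEP-WT and 4.69% of PEP-619WW monocyte barcodes were also macrophage barcodes. C1qb was found in 54.0% and 18.7% of monocyte barcodes of run 2 and C1qc in 37.7% and 11.1%, with the 8 macrophage markers at 2037 and 1504 CPM and the 7 monocyte markers at 3572 and 6042 CPM. In the same gate 6 melanocyte markers summed to 333 and 12.8 CPM, 4 erythroid markers to 509 and 1.93 CPM, 5 T cell markers to 24.0 and 226 CPM and 6 dendritic cell markers to 39.9 and 141 CPM. The neutrophil gate of run 2 held macrophage markers at 5388 CPM in PEP-WT and 1799 CPM in PEP-619WW over 8 genes, with C1qa in 44.4% and 9.15% of its barcodes. The part of these differences in the members' monocyte and neutrophil ratios was not tested. The runs differed in makeup. Run 1 held 6931 and 3212 B cell barcodes (at least 3 UMIs of Cd79a, in none of the gates), whereas run 2 held 0 in PEP-WT and 486 in PEP-619WW. T cell barcodes (at least 2 UMIs of Cd3e, in none of the gates) numbered 975 and 772 in run 1 and 23 and 598 in run 2. The 7 monocyte markers summed to 3453 and 3161 CPM in B cell barcodes of run 1 and 2251 and 2914 CPM in its T cell barcodes. Their sum in that run was thus not confined to the myeloid gates. In run 2, 256 PEP-WT and 27 PEP-619WW barcodes had UMIs of at least 3 of 6 melanocyte genes, against 0 and 0 in run 1. The summed level of these 6 genes in the macrophage gate was 132 CPM in PEP-WT and 22.8 CPM in PEP-619WW of run 2, and under 1 CPM in both libraries of run 1. All 4 hepatocyte markers were at 0 in 3 of the 4 libraries' macrophage gates, and that of PEP-WT in run 2 had 1 UMI of them. The sample labels name liver, a human T cell line and tumor-infiltrating cells, while the methods describe spleen. Melanocyte genes and the lack of B cell barcodes in PEP-WT of run 2 go against a spleen source for that library. PEP-619WW of run 2 also held melanocyte genes, and B cell barcodes were 4.41% of it against 37.5% of PEP-619WW in run 1. Its source is uncertain as well. Run 1 held 14821 and 8576 barcodes in all and run 2 9539 and 11029. The barcode numbers of run 2 match the cell numbers in the study's methods. No source says how run 1 relates to it, so the runs are kept apart, and what differs between runs cannot be told apart from their cell makeup. Pairs of libraries shared 19 to 49 barcode sequences. A change of 1 residue leaves no mark in counts of UMIs, so the genotype labels could not be checked.

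**Figure D1:**
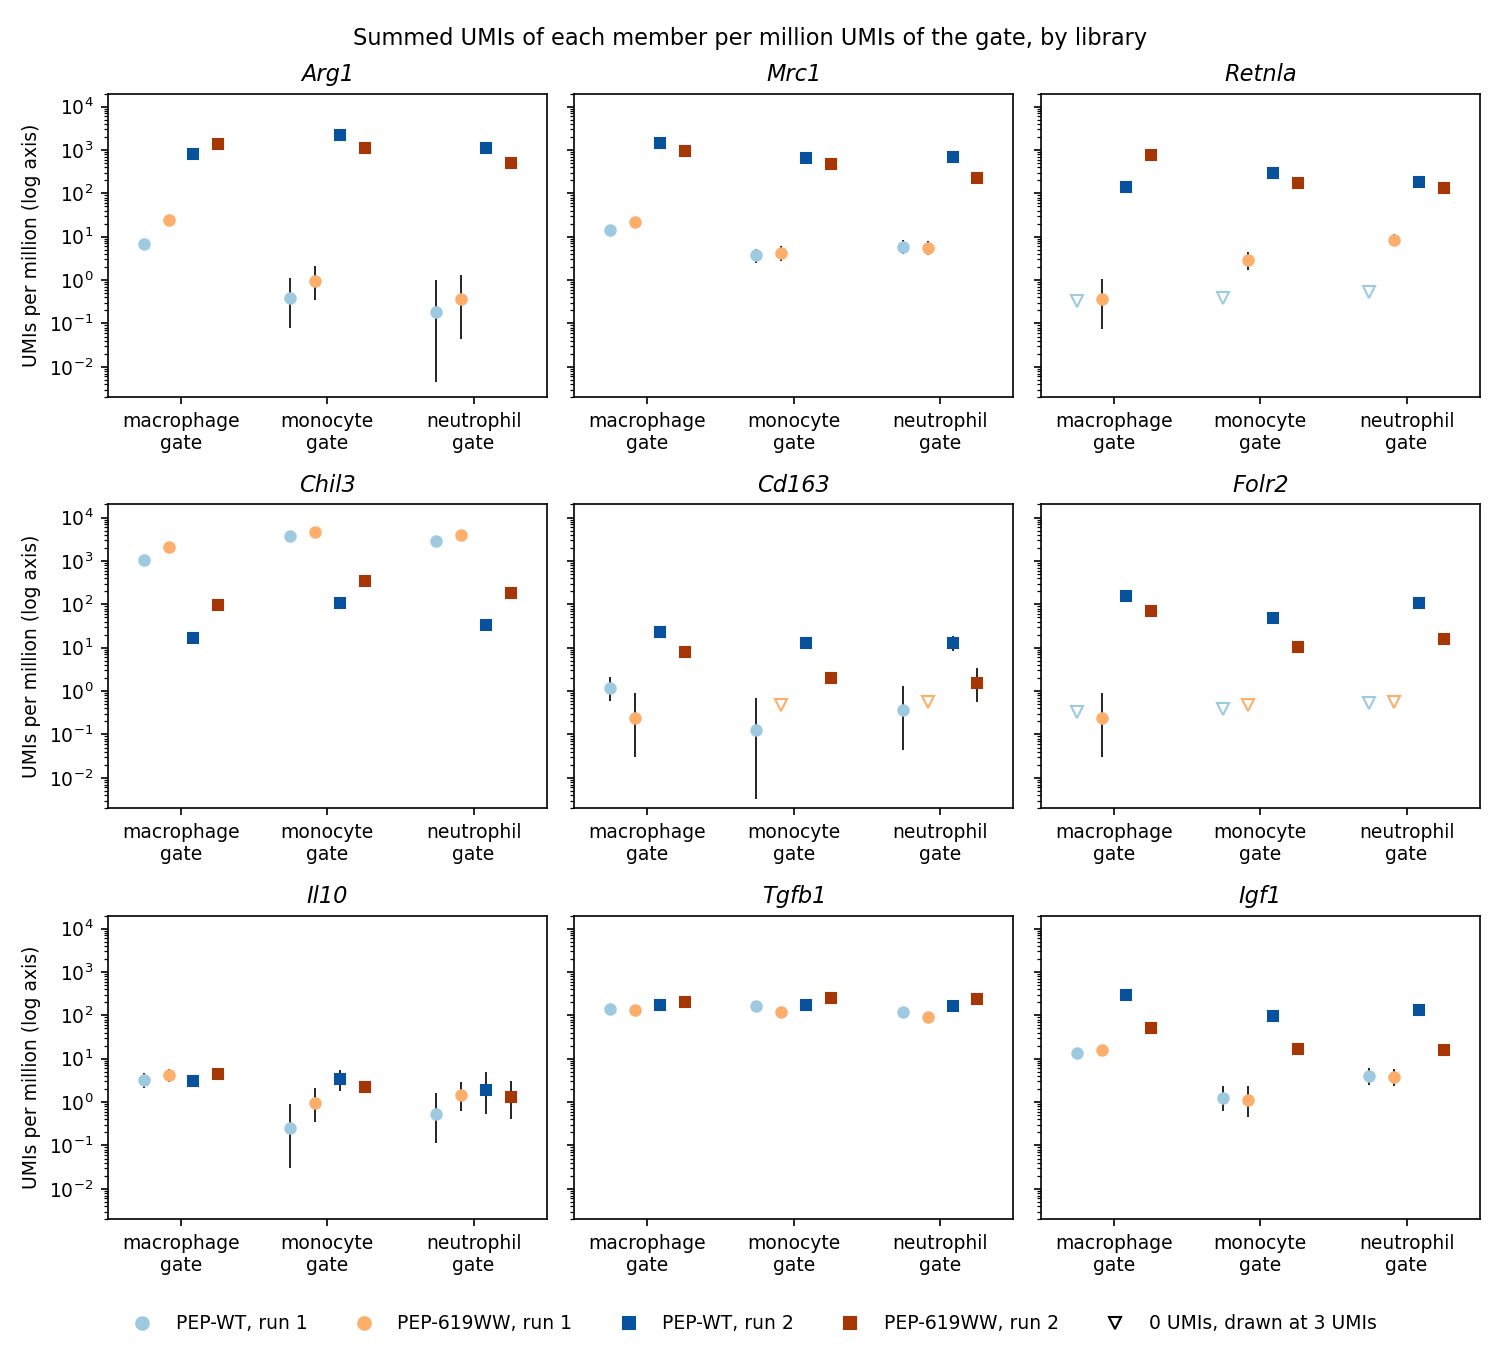
Level of each of the 9 genes (UMIs per 1000000 UMIs of the gate, log axis) in the macrophage, monocyte and neutrophil gates of the 4 libraries, with exact 95% Poisson intervals as bars. Open triangles are libraries with 0 UMIs, drawn at the level of 3 UMIs. Squares (run 2) lie far above circles (run 1) for Arg1, Mrc1 and Folr2 and below them for Chil3, while the 4 libraries lie close together for Tgfb1.

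Arg1 encodes arginase 1, which splits arginine into ornithine and urea and so draws on the substrate of nitric oxide synthase. Its level in macrophage barcodes was 6.92 CPM in PEP-WT and 24.1 CPM in PEP-619WW of run 1, and 807 CPM in PEP-WT and 1359 CPM in PEP-619WW of run 2. Both runs had the higher level in PEP-619WW. The ratio was 3.48-fold in run 1 (2.61 to 4.70), from 63 and 197 UMIs, and 1.68-fold in run 2 (1.66 to 1.71). Few cells made up the run 1 value. At least 50% of the Arg1 UMIs lay in 2 barcodes in each run 1 library, and the richest single barcode held 23 of 63 UMIs in PEP-WT and 85 of 197 in PEP-619WW. In run 2 it took 239 PEP-WT and 133 PEP-619WW barcodes to hold that share. The run 1 log2 ratio was 1.80, and with each barcode thinned to 1000 UMIs it was 1.13 and no longer had enough UMIs to count. Between runs the level differed 117-fold in PEP-WT and 56.4-fold in PEP-619WW.

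Arg1 went the other way between genotypes outside the macrophage gate of run 2. Monocyte barcodes had 2198 CPM in PEP-WT and 1132 CPM in PEP-619WW, a log2 ratio of PEP-619WW over PEP-WT of -0.96 (-0.99 to -0.92), in a gate where macrophage markers were also lower in PEP-619WW. Neutrophil barcodes had 1110 and 511 CPM, with a log2 ratio of -1.12 (-1.21 to -1.03), which was -0.75 as a mean over barcodes and -0.88 after thinning. The order of the gates thus differed between the genotypes: Arg1 was 2.72-fold higher in monocyte than in macrophage barcodes of PEP-WT, and 1.20-fold higher in macrophage than in monocyte barcodes of PEP-619WW. In run 1 these gates were nearly empty of Arg1, with 3 and 6 UMIs in monocyte and 1 and 2 UMIs in neutrophil barcodes.

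The neutrophil gate was not free of other cells. In run 2, 91 of 590 PEP-WT and 70 of 1071 PEP-619WW neutrophil barcodes were also macrophage barcodes, and Arg1 in barcodes of the neutrophil gate alone came to 282 and 139 CPM. Doublets were not removed, and the part of free RNA and doublets in these values was not tested. Arg1 UMIs were also seen in lymphocytes, in 16 of 486 B cell barcodes (3.29%, median 1788 UMIs) and 37 of 598 T cell barcodes (6.19%, median 3949.5 UMIs) of PEP-619WW in run 2. These shares compare with 52.8% of its macrophage barcodes (median 6874 UMIs), 34.8% of its monocyte and 11.7% of its neutrophil barcodes. The PEP-WT library of run 2 had only 23 T cell barcodes to set beside its own shares, of which 3 had Arg1. Its share of macrophage barcodes with Arg1 was 44.3%. With each barcode thinned to 1000 UMIs, the shares of macrophage barcodes were 26.0% in PEP-WT and 36.6% in PEP-619WW, and 2.88% of T cell and 1.12% of B cell barcodes of PEP-619WW had Arg1.

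Mrc1 encodes the mannose receptor, an endocytic lectin. It stood at 14.2 CPM in PEP-WT and 21.5 CPM in PEP-619WW macrophage barcodes of run 1, and at 1423 and 963 CPM in run 2. The direction between genotypes turned from run to run, with a log2 ratio of 0.60 (0.27 to 0.94) in run 1 and -0.56 (-0.59 to -0.54) in run 2, both short of 2-fold. As a mean over barcodes the run 1 value was -0.03, so that the turn between runs was not seen. Most macrophage barcodes of run 2 had Mrc1, 91.2% in PEP-WT and 85.7% in PEP-619WW, against 15.6% and 19.4% in run 1. B cell barcodes had it at 1.30% and 3.18% in run 1 (medians of 2682 and 3404 UMIs) and 3.91% in PEP-619WW of run 2. At a fixed 1000 UMIs the macrophage shares were 1.25% and 1.53% in run 1 and 62.9% and 51.4% in run 2. In monocyte barcodes of run 2 the levels were 643 and 479 CPM, and in neutrophil barcodes 687 and 221 CPM. The neutrophil ratio was past 2-fold, at -1.64 (-1.76 to -1.52) on the log2 scale, yet barcodes of that gate alone carried 129 and 43.0 CPM, from 101 of its 1434 and 72 of its 857 Mrc1 UMIs. Between runs Mrc1 in macrophage barcodes differed 100.4-fold in PEP-WT and 44.7-fold in PEP-619WW.

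Retnla encodes RELM-alpha, a small secreted protein that is a standard readout of STAT6 activity. It was at 0 UMIs in the PEP-WT library of run 1 in every gate, which allows up to 0.330 CPM in macrophage, 0.382 CPM in monocyte and 0.544 CPM in neutrophil barcodes. PEP-619WW of run 1 had 3, 18 and 47 UMIs in those gates. Barcodes of 1 gate alone held 1 of the 18 monocyte and 30 of the 47 neutrophil UMIs, so most of the 18 were counted in both gates. The 47 UMIs came from 9 of 864 neutrophil barcodes. Against the floor of 3 UMIs in PEP-WT the level there was 15.8-fold higher, and the exact lower limit of the ratio was 12.3-fold. The gene stayed under the 50 UMIs asked of a call. Run 2 was richer. Macrophage barcodes had 142 CPM in PEP-WT and 756 CPM in PEP-619WW, a log2 ratio of 2.41 (2.37 to 2.45). Monocyte barcodes had 300.1 and 176 CPM and neutrophil barcodes 187 and 133 CPM, so that the gene was higher in PEP-619WW in the macrophage gate and lower in the others. Those lower values hung on few cells. At least 50% of the UMIs lay in 3 PEP-WT and 11 PEP-619WW monocyte barcodes, and in 3 neutrophil barcodes of each library. Barcodes of the neutrophil gate alone had 25.5 and 22.7 CPM, from 20 and 38 UMIs, a log2 ratio of -0.17.

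Retnla was the most unevenly spread member in macrophage barcodes of PEP-WT in run 2. There 59 of 5839 macrophage barcodes, the richest 1%, held 77.6% of its UMIs, and 16 barcodes held at least 50%. In PEP-619WW the richest 20 of 1968 barcodes held 47.7%, and it took 22 to hold 50%. Weighing each barcode alike, as a mean of counts per 10000, the log2 ratio was 1.71 in place of 2.41, and after thinning it was 1.68. The share of macrophage barcodes with any Retnla differed less than the level, at 9.11% (8.39 to 9.88%) in PEP-WT and 12.8% (11.4 to 14.4%) in PEP-619WW. Thinned to 1000 UMIs the shares were 3.52% and 8.16%. Of B cell barcodes in PEP-619WW, 2.26% had Retnla, at a median depth of 1788 UMIs.

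Chil3 encodes Ym1, a chitinase-like lectin that monocytes and maturing neutrophils make as well as alternatively activated macrophages. It was lower in run 2 than in run 1, unlike Arg1, Mrc1 and Retnla. In run 1 its level was 1067 CPM in PEP-WT and 2091 CPM in PEP-619WW macrophage barcodes, 3700 and 4670 CPM in monocyte barcodes, and 2864 and 4052 CPM in neutrophil barcodes. In run 2 it was 16.7 and 98.5 CPM, 109 and 353 CPM, and 32.6 and 185 CPM in the same gates. PEP-619WW had the higher level in all 6 pairs, but not in monocyte and neutrophil barcodes of run 1 once barcodes in several gates were left out. The macrophage ratio of run 1 was just under 2-fold, at 1.96 (1.91 to 2.01), and those of run 2 were 5.90-fold (5.44 to 6.40) in macrophage, 3.26-fold (2.96 to 3.59) in monocyte and 5.68-fold (4.42 to 7.39) in neutrophil barcodes. In barcodes of the neutrophil gate alone the order of run 1 was turned, with 1667 CPM in PEP-WT and 1463 CPM in PEP-619WW. The same held for barcodes of the monocyte gate alone, with 3617 and 3372 CPM, and the log2 ratio of all monocyte barcodes of run 1 went from 0.34 to -0.02 as a mean over barcodes. In run 2, barcodes of the neutrophil gate alone had 12.8 and 27.5 CPM, from 10 and 46 UMIs, and their log2 ratio was 1.11 in place of 2.505. In run 1, 444 of 806 PEP-WT neutrophil barcodes were monocyte barcodes as well, and 464 of 864 in PEP-619WW. Under stricter gates (at least 10 UMIs of C1qa and C1qb) the macrophage ratio of run 1 passed the call, at 1.15 on the log2 scale. B cell barcodes of run 1 had 20.8 and 41.7 CPM, which also differed between the libraries in the same direction. The paralog Chil4 had 0 to 2 UMIs per library in these gates.

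Apart from the levels, the members were placed in the genome. In GRCm38 (mm10) coordinates of the GENCODE M21 annotation, Arg1 (ENSMUSG00000019987) spans chromosome 10 from 24915221 to 24927484 on the minus strand and Igf1 (ENSMUSG00000020053) 87858265 to 87937042 on its plus strand. Folr2 (ENSMUSG00000032725) and Tgfb1 (ENSMUSG00000002603) share chromosome 7, at 101839988 to 101857194 on the minus and 25687002 to 25705077 on the plus strand. Mrc1 (ENSMUSG00000026712) is on chromosome 2 (14229392 to 14332057, plus), Chil3 (ENSMUSG00000040809) on chromosome 3 (106147554 to 106167564, minus), Cd163 (ENSMUSG00000008845) on chromosome 6 (124304656 to 124330527, plus), Retnla (ENSMUSG00000061100) on chromosome 16 (48842551 to 48844461, plus) and Il10 (ENSMUSG00000016529) on chromosome 1 (131019845 to 131024974, plus).

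Promoter sequence from RefSeq (GRCm38.p6) lying outside the gene's own exons was matched for 6 of the 9 members. Shown 5′ to 3′ on the strand of the gene are the bases just before the transcription start of Retnla and Chil3, the members that were higher in PEP-619WW macrophage barcodes of run 2, of Folr2, which was lower, and of Mrc1, which most of those barcodes held. Capitals mark matches, on either strand, to 4 short motifs: a STAT6-type palindrome (TTCNNNNGAA), the TATA box, the core of PU.1 sites and a C/EBP-type motif (TTGCNNAA). Stretches stop where an annotated exon of the gene begins.
Retnla, chr16:48842359-48842550, plus strand: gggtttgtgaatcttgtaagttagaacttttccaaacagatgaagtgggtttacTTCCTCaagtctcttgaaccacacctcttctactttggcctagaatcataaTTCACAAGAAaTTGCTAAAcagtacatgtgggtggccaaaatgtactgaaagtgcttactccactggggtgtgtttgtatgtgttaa
Chil3, chr3:106167565-106167814, minus strand: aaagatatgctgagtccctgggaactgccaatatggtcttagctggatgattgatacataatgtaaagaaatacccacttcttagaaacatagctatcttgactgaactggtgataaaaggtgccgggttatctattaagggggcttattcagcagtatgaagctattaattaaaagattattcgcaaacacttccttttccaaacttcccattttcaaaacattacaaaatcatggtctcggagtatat
Folr2, chr7:101845332-101845581, minus strand: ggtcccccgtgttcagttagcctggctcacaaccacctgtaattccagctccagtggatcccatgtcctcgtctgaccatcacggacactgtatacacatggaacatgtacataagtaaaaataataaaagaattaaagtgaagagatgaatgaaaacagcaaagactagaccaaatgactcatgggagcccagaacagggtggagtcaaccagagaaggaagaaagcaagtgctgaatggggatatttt
Mrc1, chr2:14229164-14229391, plus strand: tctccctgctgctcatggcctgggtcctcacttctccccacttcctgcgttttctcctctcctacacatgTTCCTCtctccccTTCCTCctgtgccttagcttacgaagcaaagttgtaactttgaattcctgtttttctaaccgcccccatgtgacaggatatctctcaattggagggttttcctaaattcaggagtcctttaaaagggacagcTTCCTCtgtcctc
In the 250 bases before its RefSeq start, Retnla held 1 match to each of the 4 motifs. The STAT6-type palindrome lay 145 to 136 bases before the start, just upstream of the C/EBP-type match at 134 to 127. The PU.1 core lay at 196 to 191, and the TATA box at 30 to 25, past the end of the printed stretch. The palindrome was found in 5.85% of all 32851 windows of this length, the C/EBP-type motif in 9.56%, the TATA box letters TATAAA in 12.4% and the PU.1 core letters GAGGAA in 23.3%. Mrc1 held 3 matches to the PU.1 core, and the windows of Chil3 and of this start of Folr2 held 0 of the 4 motifs. The Folr2 start shown lies inside the annotated span of the gene. A second RefSeq entry of Folr2, at the annotated 5′ end (chr7:101857191-101857440), also held 0 of the 4 motifs. A match is a run of letters and was not read as a bound site, and these counts say nothing of windows further away.

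Cd163 and Folr2 encode the haptoglobin-hemoglobin scavenger receptor and folate receptor beta. Both were all but absent from run 1: Folr2 had 0 UMIs in the whole PEP-WT library and 2 UMIs in PEP-619WW, and Cd163 had 11 and 2 UMIs in macrophage barcodes. In run 2 Folr2 reached 158 CPM in PEP-WT and 70.6 CPM in PEP-619WW macrophage barcodes, with UMIs in 44.7% (43.5 to 46.0%) and 23.1% (21.22 to 24.995%) of them. It was found in 0 of 486 B cell barcodes of PEP-619WW (median 1788 UMIs), where 3 counts would be 0.617% and the Clopper-Pearson limit is 0.756%. Against the floor of 3 UMIs, Folr2 of PEP-WT macrophage barcodes was 479-fold higher in run 2 than in run 1. The exact lower limit of that ratio was 8.61 on the log2 scale. The log2 ratio between genotypes in run 2 was -1.16 (-1.25 to -1.07) in macrophage barcodes, -2.28 (-2.57 to -1.99) in monocyte barcodes and -2.71 (-3.14 to -2.30) in neutrophil barcodes. Taken as a mean over barcodes instead of a sum, the macrophage value was -0.98, short of 2-fold. Cd163 was sparser, at 22.8 and 8.07 CPM in macrophage barcodes of run 2, and had UMIs in 6.88% and 2.998% of them. Neither receptor gene had a UMI in the B cell barcodes of run 2, and Folr2 had UMIs in 0.334% of T cell barcodes of PEP-619WW. The log2 ratio of Cd163 was -1.50 (-1.77 to -1.24) in macrophage and -2.68 (-3.31 to -2.06) in monocyte barcodes, where 1 PEP-WT barcode held 29 of the 55 UMIs. In neutrophil barcodes outside the other gates 12 and 4 UMIs of Folr2 were left.

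Igf1 encodes insulin-like growth factor 1. Its level in macrophage barcodes was 13.8 and 15.8 CPM in run 1, a log2 ratio of 0.19 (-0.18 to 0.56) whose interval includes 0 and which was -0.98 as a mean over barcodes. It was 297 CPM in PEP-WT against 52.3 CPM in PEP-619WW in run 2. It was lower in PEP-619WW in all 3 gates of run 2. The log2 ratios were -2.50 (-2.61 to -2.40) in macrophage, -2.51 (-2.73 to -2.30) in monocyte and -3.02 (-3.44 to -2.62) in neutrophil barcodes. The 8 macrophage markers together were also lower in PEP-619WW in each of these gates. Barcodes of the neutrophil gate alone held 26 of its 270 Igf1 UMIs in PEP-WT and 13 of its 62 in PEP-619WW. Their levels were 33.2 and 7.77 CPM, a log2 ratio of -2.09 from fewer UMIs than a call asks for. The share of macrophage barcodes with Igf1 was 61.7% (60.4 to 62.9%) and 16.6% (14.9 to 18.3%) in run 2. At 1000 UMIs per barcode it was 22.7% and 4.85%. In B cell barcodes of PEP-619WW it was 0.206% with no thinning.

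Tgfb1 and Il10 encode cytokines that restrain immune responses. Tgfb1 was the steadiest member, between 91.1 and 249 CPM in all 12 combinations of gate and library, and present in B cell barcodes too, at 70.7 and 63.1 CPM in run 1. Its log2 ratio in macrophage barcodes was -0.08 (-0.20 to 0.04) in run 1 and 0.24 (0.18 to 0.29) in run 2. In monocyte barcodes it was lower in PEP-619WW in run 1, at -0.40 (-0.53 to -0.27), and higher in run 2, at 0.54 (0.43 to 0.66). Il10 was at 3.19 and 4.16 CPM in macrophage barcodes of run 1 and 3.02 and 4.35 CPM in run 2. A difference was not detectable at this depth in run 1, with a log2 ratio of 0.39 (-0.37 to 1.15) from 29 and 34 UMIs, and that of run 2 was 0.53 (0.10 to 0.94) from 176 and 69 UMIs. As a mean over barcodes it was 1.06, past 2-fold. UMIs of Il10 were found in 2.57% and 2.64% of run 2 macrophage barcodes.

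**Figure D2:**
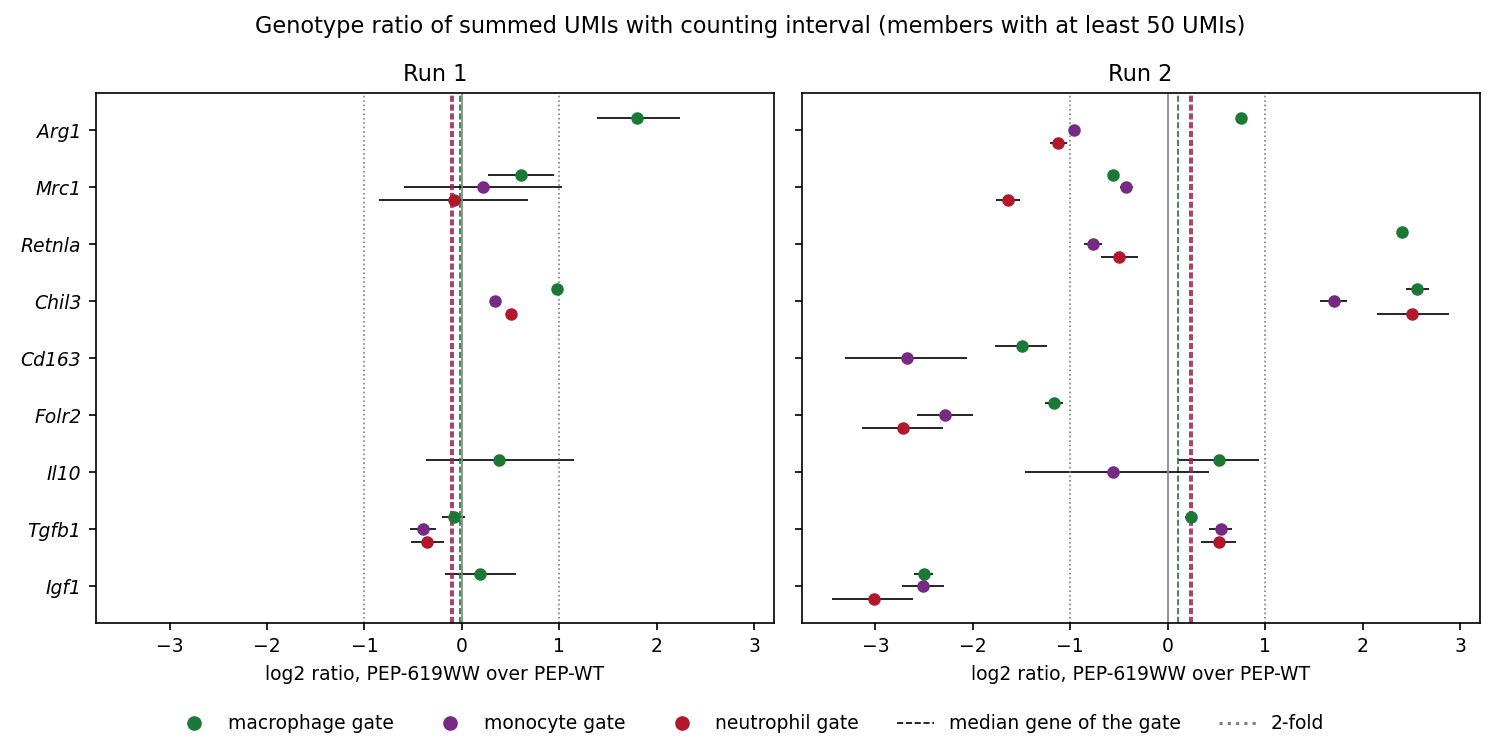
Log2 ratio of summed UMIs, PEP-619WW over PEP-WT, for members with at least 50 UMIs over both genotypes, by gate (color) and run (panel), with exact 95% intervals. Dashed lines mark the median gene of each gate and dotted lines 2-fold. In run 2, Chil3 lies right of 2-fold in all 3 gates and Folr2 and Igf1 left of it, while the Arg1 and Retnla points of the macrophage gate lie on the other side of 0 from those of the monocyte and neutrophil gates.

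Counted together, with a call set at 2-fold and at least 50 UMIs over both genotypes, 1 of 6 counted members was higher in PEP-619WW in run 1 macrophage barcodes (Arg1) and 0 lower. Over all 10209 genes counted there, 0.98% were higher and 1.24% lower. Monocyte and neutrophil barcodes of run 1 had 0 of 3 counted members past 2-fold in either direction, beside 1.08% of genes higher and 1.39% lower in the first and 0.84% and 2.19% in the second. In run 2 macrophage barcodes, 2 of 9 members were higher (Retnla and Chil3) and 3 lower (Cd163, Folr2 and Igf1), against 8.82% and 7.17% of 11847 genes. In monocyte barcodes 1 of 9 was higher and 3 lower, against 9.83% and 2.46% of genes. In neutrophil barcodes 1 of 7 was higher and 4 lower, against 9.47% and 4.66% of genes. The median log2 ratio of the members in the 3 gates of run 2 was 0.24, -0.77 and -1.12, and that of all counted genes 0.11, 0.25 and 0.23. In run 1 the medians of the 6, 3 and 3 counted members were 0.49, 0.22 and -0.08, and those of all genes -0.02, -0.10 and -0.11.

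Set against the median gene of the gate, each called member kept its direction and stayed past 2-fold. The log2 ratios in macrophage barcodes of run 2 then became 2.30 for Retnla, 2.45 for Chil3, -1.60 for Cd163, -1.27 for Folr2 and -2.61 for Igf1. In monocyte barcodes Arg1 (-1.20) and Retnla (-1.01) passed 2-fold in addition, which made 5 lower members in place of 3. The balance of all genes moved by over 10 points with this scaling in the monocyte and neutrophil gates: of genes past 2-fold, those higher in PEP-619WW went from 43.8% to 58.9% in monocyte and from 27.8% to 43.2% in neutrophil barcodes of run 1, and from 80.0% to 60.4% and from 67.0% to 43.3% in those of run 2. In macrophage barcodes of run 2 the shift was smaller, from 55.1% to 47.7%, but the majority went from higher to lower.

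Other RNA moved with the genotypes in run 2 macrophage barcodes. The summed level of 7 monocyte markers was 1237 CPM in PEP-WT and 4236 CPM in PEP-619WW, and all 7, among them Chil3 and Fn1, were at or above 10 CPM in both. The 5 T cell markers summed to 8.79 and 206 CPM, with 0 and 5 of them at 10 CPM, and 4 erythroid markers to 379.9 and 1.32 CPM, with 4 and 0. Of 6 dendritic cell markers, 0 and 1 were at 10 CPM, summing to 4.94 and 34.3 CPM. The 7 neutrophil markers summed to 246 and 561 CPM, with 4 and 5 at 10 CPM and Ly6g at 0 in PEP-619WW. The 8 macrophage markers were at 9409 and 6778 CPM, and 5 red pulp macrophage markers at 1393 and 990 CPM, with 4 and 2 at 10 CPM. Hmox1 alone made up 1182 and 955 CPM of the red pulp sums. Vcam1 was at 161 and 19.9 CPM, Slc40a1 at 30.6 and 6.56 CPM, Cd5l at 15.5 and 4.29 CPM and Spic at 3.96 and 3.85 CPM. In macrophage barcodes of run 1 the erythroid markers differed most, at 1949 CPM in PEP-WT and 354 CPM in PEP-619WW with 4 of 4 at 10 CPM in both. There the monocyte markers were at 6443 and 7831 CPM, the neutrophil markers at 3395 and 3049 CPM and the T cell markers at 613 and 610.1 CPM. The part of these differences in the members' ratios was not tested.

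**Figure D3:**
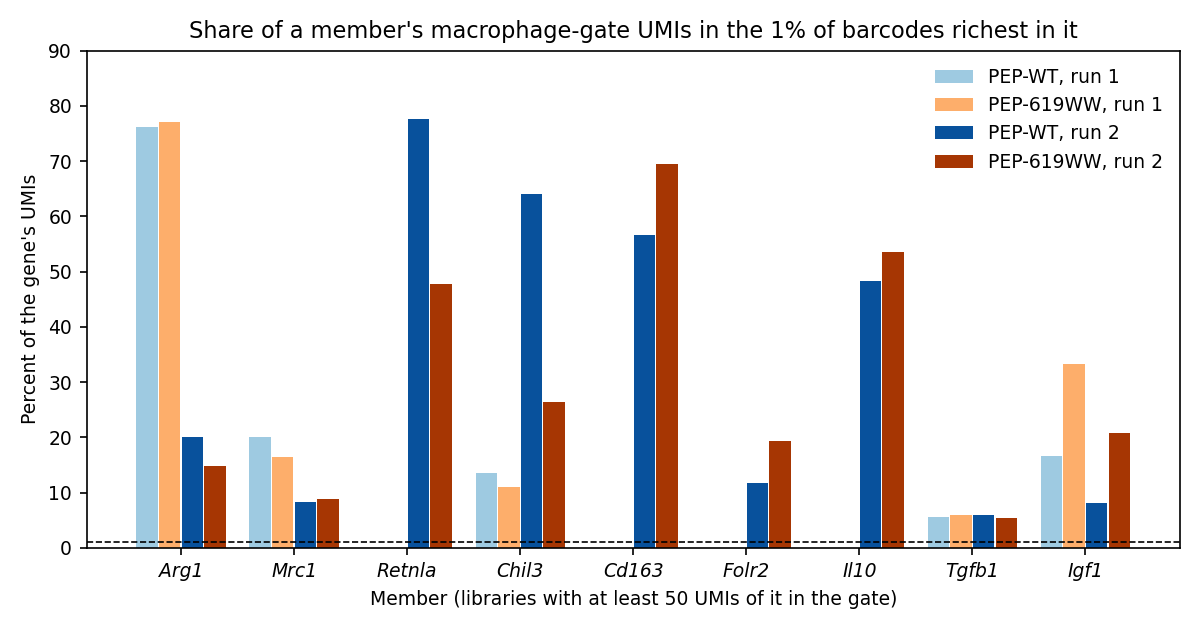
Percent of a member's UMIs in the macrophage gate that lay in the 1% of barcodes richest in that member, by library, for libraries with at least 50 UMIs of it. The dashed line at 1% is an even spread. Arg1 in run 1 (76.2% and 77.2%) and Retnla in PEP-WT of run 2 (77.6%) stand highest, and Tgfb1 is low in all 4 libraries (5.49% to 6.02%).

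Co-detection was read per macrophage barcode. In run 2, 21.9% of PEP-WT barcodes (20.8 to 23.0%) had UMIs of Arg1, Mrc1 and Folr2 at once, against 13.4% (11.9 to 14.9%) in PEP-619WW. Arg1 and Mrc1 without Folr2 were found in 18.7% (17.7 to 19.8%) of the PEP-WT library and 32.9% (30.8 to 35.0%) of the PEP-619WW library. Mrc1 and Folr2 without Arg1 made up 21.6% and 8.69%, and Mrc1 alone 29.0% and 30.8%. Folr2 without Mrc1 was rare: among 5839 PEP-WT barcodes 41 had it with Arg1 and 32 alone, and among 1968 in PEP-619WW 11 and 9 did. In run 1, 0 of 598 and 0 of 494 barcodes had the 3 genes together, where 3 counts would be 0.502% and 0.607% and the Clopper-Pearson limits are 0.615% and 0.744%. Arg1 with Mrc1 was seen in 4 and 11 of these barcodes.

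**Figure D4:**
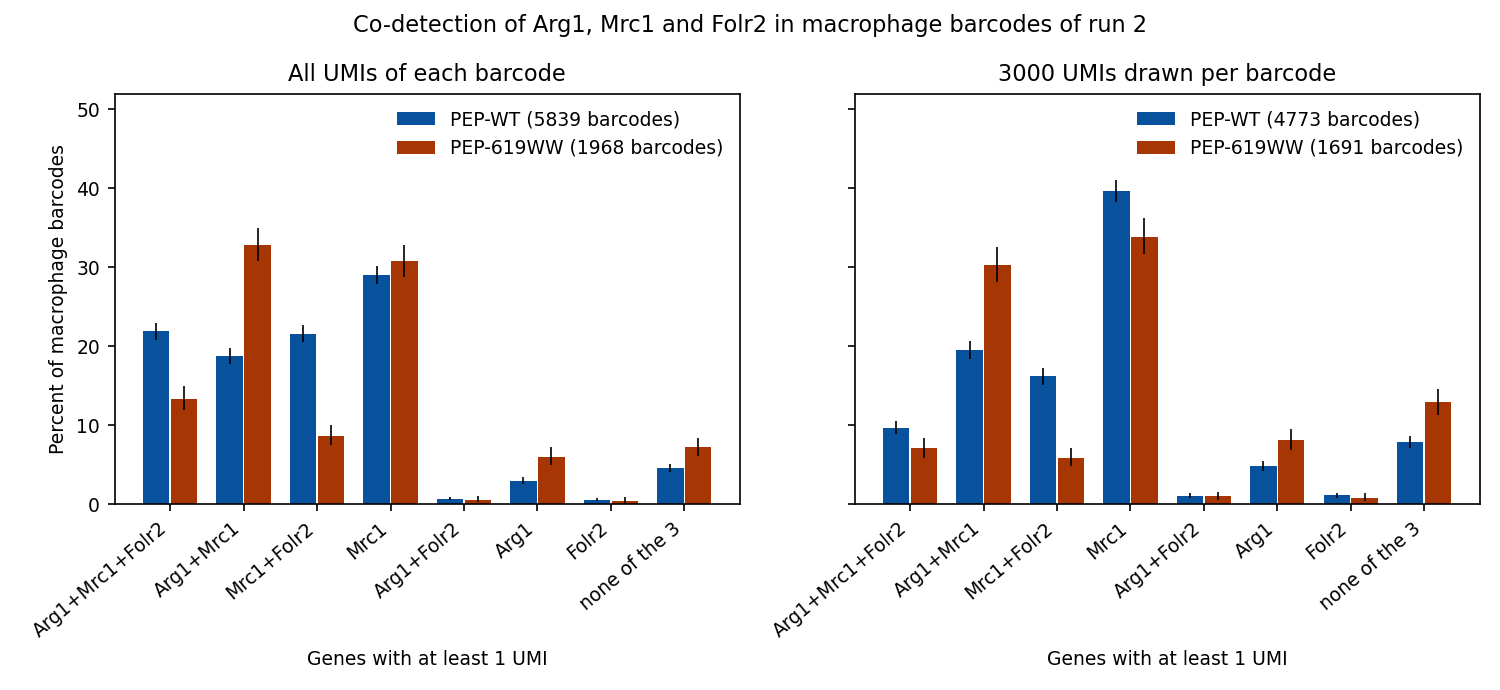
Percent of macrophage barcodes of run 2 with each combination of Arg1, Mrc1 and Folr2 UMIs, in PEP-WT and PEP-619WW, with exact 95% intervals, from all UMIs (left) and after thinning each barcode to 3000 UMIs (right). The PEP-WT bars are the taller for the 3 genes together and for Mrc1 with Folr2, and the PEP-619WW bars for Arg1 with Mrc1, in both panels.

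Depth enters these shares, since PEP-WT barcodes with Folr2 had a median of 11190.5 UMIs and those without it 5809. In PEP-619WW the medians were 7924.5 and 6599. With each barcode thinned to 3000 UMIs (4773 PEP-WT and 1691 PEP-619WW barcodes were deep enough), the 3 genes together were found in 9.70% (8.88 to 10.6%) and 7.10% (5.92 to 8.43%). Arg1 and Mrc1 without Folr2 were found in 19.5% and 30.3%. At this equal depth Mrc1 was detected in 92.0% (90.5 to 93.4%) of PEP-WT barcodes with Folr2 and 82.3% (81.0 to 83.5%) of those without. The corresponding shares in PEP-619WW were 87.6% (82.9 to 91.4%) and 75.4% (73.1 to 77.6%).

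Arg1 and Folr2 were not exclusive of each other. Arg1 was detected in 38.4% (35.8 to 41.1%) of thinned PEP-WT barcodes with Folr2 and 33.9% (32.3 to 35.5%) of those without, and in 54.8% (48.4 to 61.1%) and 45.1% (42.5 to 47.7%) in PEP-619WW. The order for Arg1 and Mrc1 differed between the genotypes. Mrc1 was detected in 83.03% of thinned PEP-WT barcodes with Arg1 and 86.1% of those without, and in 80.4% and 74.3% in PEP-619WW. From all UMIs the PEP-WT order was the reverse, 91.7% with Arg1 and 90.8% without.

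Several members also differed in level between thinned barcodes of run 2 with and without Igf1 or Folr2. Arg1 was lower with Igf1, at 609.9 against 1219.7 CPM in PEP-WT and 824 against 1727 CPM in PEP-619WW. Retnla was lower too, at 69.7 against 249 CPM and 390.1 against 576 CPM. Igf1 barcodes had more Mrc1 in both, with 1699 against 1276 CPM in PEP-WT and 1190.5 against 950.3 CPM in PEP-619WW. Cd163 was 59.1 CPM with Folr2 and 9.33 CPM without it in PEP-WT, and 17.3 and 4.86 CPM in PEP-619WW. Chil3 went the other way, at 12.4 CPM with Folr2 and 27.0 CPM without in PEP-WT, and 77.3 and 107 CPM in PEP-619WW. Retnla was 266 and 128 CPM in PEP-WT and 833 and 508 CPM in PEP-619WW with and without Folr2. Tgfb1 was nearly level with and without Folr2, at 177 and 178 CPM in PEP-WT and 216 and 210 CPM in PEP-619WW. For Il10 the interval of the log2 ratio included 0 with either gene in both libraries.

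The genes whose level per barcode followed each member most closely were taken as those with the highest of the lowest Pearson r over libraries, on ln(1 + counts per 10000). Over all 4 libraries and 4344 genes with at least 200 UMIs in each, Cd36 (0.17), Ccl6 (0.17), Tiparp (0.16), Ctsl (0.14) and Itgam (0.12) were nearest to Arg1. Ctsd (0.13), Dnajc3 (0.10), Pikfyve (0.10), Lgmn (0.10) and C1qc (0.09) were nearest to Mrc1. These are weak and describe the barcodes of shared libraries, with depth in common. Folr2 had too few UMIs in run 1 to be ranked there, so run 2 alone was ranked as well, a restriction chosen after seeing the data. Over the 2 libraries of run 2 and 6900 genes, Cbr2 (0.40), Ednrb (0.37), Selenop (0.32), Pf4 (0.30) and Gas6 (0.28) were nearest to Folr2, Srgn (0.48), Thbs1 (0.45), Prdx6 (0.37), Hilpda (0.37) and Gpi1 (0.35) to Arg1, and Dab2 (0.42), Cltc (0.32), F13a1 (0.32), Maf (0.31) and Snx2 (0.29) to Mrc1. Among the members, r between Arg1 and Mrc1 in run 2 was -0.12 in PEP-WT and 0.11 in PEP-619WW, and between Mrc1 and Folr2 0.24 and 0.23. Mrc1 and Igf1 had r of 0.16 and 0.29 in run 1 and 0.22 and 0.11 in run 2, the lowest of which lies above that of Dnajc3, although Igf1, with 126 and 129 UMIs in run 1, was below the minimum for ranking.

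Genes around the members were counted by list in macrophage barcodes. Of 15 genes of IL-4 and IL-13 signalling, 13 had 50 UMIs or more in either run. In run 1, 0 were past 2-fold in either direction. In run 2, 4 were higher in PEP-619WW and 0 lower. The shares over all genes in this gate were 8.82% higher and 7.17% lower in run 2, and 0.98% and 1.24% in run 1. The 4 higher genes were Irf4, a transcription factor of alternative activation, at 2.49 and 13.7 CPM, the cytokine signalling inhibitors Cish (5.44 and 33.0 CPM) and Socs1 (14.4 and 30.1 CPM), and the kinase Jak3 (3.60 and 11.5 CPM). The receptor chain Il4ra was at 146 and 154 CPM and Stat6 at 49.9 and 78.4 CPM, both under 2-fold. The list's median log2 ratio was -0.08 in run 1 and 0.89 in run 2. Monocyte barcodes of run 2 had 6 of 14 counted list genes higher and 0 lower, beside 9.83% and 2.46% of all genes. Neutrophil barcodes of run 2 had 4 of 12 higher and 0 lower, beside 9.47% and 4.66%. The list's medians there were 0.75 and 0.70. T cell markers (8.79 and 206 CPM) and dendritic cell markers (4.94 and 34.3 CPM) also differed in run 2 macrophage barcodes. Their part in these counts was not tested.

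Of 17 other alternative activation markers 16 were matched in the files, and 8 of 14 counted were higher and 2 lower in PEP-619WW of run 2, beside 8.82% and 7.17% of all genes. Of the 8, Fn1 is also on the monocyte list and Cd209a on the dendritic cell list, both of which summed to more in PEP-619WW in this gate. The chemokines Ccl17 (11.4 and 69.7 CPM), Ccl22 (4.03 and 34.4 CPM) and Ccl24 (127 and 613 CPM) were higher, as were the lectins Mgl2 (91.0 and 226 CPM) and Cd209a (1.12 and 20.2 CPM), the checkpoint ligand Pdcd1lg2 (6.76 and 22.1 CPM), fibronectin Fn1 (529 and 1448 CPM) and the ribonuclease Ear2 (23.2 and 104 CPM). The chemokine Ccl8 was lower, at 4051 and 645 CPM, and the scavenger receptor Marco had 302 UMIs in PEP-WT and 0 in PEP-619WW, at least 27.4-fold lower. In run 1, 2 of 10 were higher, Ccl24 (29.9 and 69.7 CPM) and Fn1 (53.7 and 125 CPM), and Marco was the 1 lower (20.9 and 2.45 CPM). Ccl24, Fn1 and Marco thus had the same direction in both runs. The list's median log2 ratio was 0.00 in run 1 and 1.38 in run 2.

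Tissue macrophage genes went the opposite way in run 2, where 0 of 18 counted of 21 were higher and 8 lower, beside 8.82% and 7.17% of all genes. Lower were the hyaluronan receptor Lyve1 (36.2 and 5.74 CPM), Cd5l (15.5 and 4.29 CPM) and the adhesion molecule Vcam1 (161 and 19.9 CPM). So were the iron exporter Slc40a1 (30.6 and 6.56 CPM) and the bridging ligand Gas6 (261 and 44.7 CPM). The lipid receptor Trem2 (590 and 206 CPM) and Gpnmb (534 and 101 CPM) were lower too. The complement receptor Vsig4 had 91 UMIs and 0, 8.26-fold lower against the floor of 3 UMIs. In run 1, 3 of 15 were higher, Trem2 (15.5 and 41.5 CPM), Gpnmb (11.7 and 24.0 CPM) and Spp1 (1.76 and 5.51 CPM), and 0 lower. Trem2 and Gpnmb therefore changed sides between the runs. The medians were 0.10 in run 1 and -0.66 in run 2.

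Among 10 genes of arginine and polyamine metabolism, 0 of 7 counted were past 2-fold in macrophage barcodes of run 1. In those of run 2 the second arginase Arg2 (3.40 and 7.44 CPM) and argininosuccinate synthase Ass1 (9.05 and 34.3 CPM) were higher and 0 of 10 lower, and inducible nitric oxide synthase Nos2 was at 17.2 and 11.0 CPM. In monocyte barcodes of run 2, 0 of 10 were higher and 2 lower. These 2 were Nos2 (43.0 and 14.1 CPM) and the arginine transporter Slc7a2 (64.4 and 16.9 CPM). In neutrophil barcodes of run 2, Ass1 was higher (10.1 and 29.4 CPM) and Slc7a2 lower (40.3 and 8.50 CPM). Over all genes of run 2, 9.83% were higher and 2.46% lower in monocyte barcodes, and 9.47% and 4.66% in neutrophil barcodes. Of 18 receptors and activators for IL-10, TGF-beta and IGF1, 5 of 16 counted were higher in macrophage barcodes of run 2 and 1 lower. In macrophage barcodes both lists stand beside 8.82% and 7.17% of all genes in run 2 and 0.98% and 1.24% in run 1. The higher ones were the receptor Il10ra (25.01 and 54.7 CPM), the cytokine signalling inhibitor Socs3 (35.6 and 80.4 CPM) and Smad3 (5.15 and 11.1 CPM). So were Lrrc32, which holds latent TGF-beta at the surface (0.669 and 2.90 CPM), and the TGF-beta activator Thbs1 (248 and 607 CPM). The binding protein Igfbp4 was lower in both runs, at 84.3 and 19.7 CPM in run 2 and 5.06 and 1.71 CPM in run 1. It was the only one of 15 counted past 2-fold in run 1.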

How the data were processed

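The 10x Genomics 3′ libraries were sequenced and turned by the authors into UMI counts per gene and barcode with Cell Ranger against mm10. The submitters' processing notes give version 6.0.0, whereas the study's methods name a later version. The deposited counts are whole numbers, not normalized, and were used as they stand. No reads were realigned. The libraries held 8576 to 14821 barcodes and 55504449 to 77916082 UMIs. Every barcode was kept, barcodes passing several gates counted in each, and doublets were not removed. UMIs were summed per gate and library and divided by the gate's total (CPM). A difference was called at 2-fold with at least 50 UMIs over both genotypes. Ratios of sums have exact conditional Poisson intervals and shares have Clopper-Pearson intervals, at 95%. A count of 0 was given a floor of 3 UMIs per gate and library. For shares at equal depth, each barcode was thinned at random without replacement to 1000 or 3000 UMIs. Python 3.11.15, numpy 2.4.6 and scipy 1.17.1 were used.

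The members, gene lists and gates were chosen with earlier results of these data known. Values are named for the 9 members, for list genes past 2-fold in macrophage barcodes of a run, and for the 5 genes most like Arg1, Mrc1 and Folr2. Il4ra, Stat6, Nos2 and Slc7a2 lie outside that rule and were named after their values were seen. One listed gene, Clec7a, was not matched by symbol. Promoters came from RefSeq and gene positions from the GENCODE M21 annotation. Alternatives were stricter gates, exclusive gates, at least 500 detected genes, a mean over barcodes, thinning and no minimum of UMIs. One further setting, a filter on barcodes, is not reported here. Scaling to the median gene, leaving out barcode sequences shared between libraries, and T cell barcodes as the background were added after seeing the data.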

Additional observations from a re-analysis of the deposited data

Results flagged for a closer look

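The first items here, Arg1, Retnla, Mrc1 and Tgfb1, were picked out because a ratio of PEP-619WW over PEP-WT went one way in one gate or run and the opposite way in another, with intervals of counting error that excluded 0 on both sides. With 1 library per genotype and run, none of these differences was itself tested.

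Arg1, the arginase gene, had a log2 ratio of 0.75 in macrophage barcodes of run 2, -0.96 in monocyte barcodes and -1.12 in neutrophil barcodes. Retnla had 2.41 in macrophage barcodes of the same run, -0.77 in monocyte barcodes and -0.49 in neutrophil barcodes. Barcodes of the neutrophil gate alone had a Retnla log2 ratio of -0.17, from 20 and 38 UMIs. Mrc1 was higher in PEP-619WW macrophage barcodes of run 1, at 0.60, and lower in those of run 2, at -0.56, but as a mean over barcodes the run 1 value was -0.03. Tgfb1 in monocyte barcodes was at -0.40 in run 1 and 0.54 in run 2, and in neutrophil barcodes at -0.36 and 0.52.

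Il10 was picked out for its level in barcodes outside the gates. Barcodes of PEP-619WW in run 2 that passed none of the 3 gates had 5.71 CPM, from 114 UMIs in 34 of 5373 barcodes, which was above each of the 3 gates of that library. The interval, 4.71 to 6.86 CPM, overlaps that of the macrophage gate, 3.38 to 5.50 CPM around 4.35, and lies above those of the monocyte and neutrophil gates. The T cell barcodes among them had 9.59 CPM, from 37 UMIs in 15 barcodes. In PEP-WT of run 2 the ungated barcodes had 2.39 CPM.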

How the results depend on the processing

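Across 37 member ratios and 7 alternatives there were 259 pairs, of which 180 lay inside the 95% interval of the reported ratio and 79 outside it. Under these 7, no called ratio changed direction, and 13 of 15 called ratios stayed past 2-fold. The exceptions were Arg1 in run 2 neutrophil barcodes (-0.75 as a mean over barcodes, -0.88 thinned to 1000 UMIs) and Folr2 in run 2 macrophage barcodes (-0.98 as a mean over barcodes). The cause was not tested. Ratios were followed here by fold alone, without the minimum of UMIs asked of a call. With exclusive gates, Folr2 (12 and 4 UMIs) and Igf1 (26 and 13 UMIs) in run 2 neutrophil barcodes fell below that minimum. Arg1 in run 1 macrophage barcodes did so after thinning to 1000 UMIs. The number of members called higher in run 1 macrophage barcodes went from 1 to 2 under stricter gates and to 0 after thinning to 1000 UMIs, where fewer UMIs were left, and the number lower from 0 to 1 with no minimum of UMIs. With no minimum, 2 members were higher in run 1 monocyte and 2 in run 1 neutrophil barcodes, in place of 0. Arg1 and Il10 were past 2-fold in both gates, on 1 to 8 UMIs per library. Retnla, at 0 UMIs in PEP-WT, is not in that count. Against the floor of 3 UMIs it was 7.49-fold higher in monocyte and 15.8-fold in neutrophil barcodes. In run 2 macrophage barcodes the number higher went from 2 to 3, with Il10, and the number lower from 3 to 2, without Folr2, as a mean over barcodes. In run 2 monocyte barcodes the number lower went from 3 to 5 as a mean over barcodes and to 5 against the median gene. In run 2 neutrophil barcodes it went from 4 to 2 with exclusive gates, where Folr2 and Igf1 had too few UMIs, and to 1 after thinning.

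The share of run 2 macrophage barcodes with Arg1, Mrc1 and Folr2 together was 21.9% in PEP-WT, 2.56% at 1000 UMIs, 9.70% at 3000 UMIs and 23.9% under the stricter gate, and in PEP-619WW 13.4%, 1.65%, 7.10% and 15.5%. Arg1 was detected more often with than without Folr2 by 11.2 points in PEP-WT, 5.87 at 1000 UMIs and 4.51 at 3000. Mrc1 was detected more often with Folr2 by 10.8 points in PEP-WT, 12.5 at 1000 UMIs and 7.35 under the stricter gate, and by 12.8 and, under the stricter gate, 8.68 in PEP-619WW. The order of Mrc1 with against without Arg1 turned in PEP-WT, from 0.885 points to -5.14 at 1000 UMIs and -3.08 at 3000, and went from 3.77 to 8.53 points at 1000 UMIs in PEP-619WW. No paired analysis was possible because each run held 1 library per genotype. Pools of mice, cell makeup and genotype cannot be told apart within a run.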
